A study of Mus musculus with 30 samples.

Results

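The comparison described here is the change in D6-deficient back skin between day 2 and day 4 after the last of 3 daily applications of 50 μM TPA, a phorbol ester that inflames the skin. All arrays of these groups were taken, 3 at day 4 and 3 at day 2, which are 6 of the 30 arrays of the series. D6, encoded by Ccbp2, is a scavenging receptor that takes up inflammatory CC chemokines without signaling like a classical chemokine receptor, and the D6-deficient mice lack it in every tissue. Both groups were female D6-deficient mice of the strain 129–C57BL/6, aged 8 to 12 weeks, and both had received all 3 TPA applications. WT mice of the same strain, age and sex at days 2 and 4 after the same treatment (3 arrays each) were used to test whether a change differed between genotypes, and control skin at day 0, which the labels title untreated and describe as acetone-treated, gave the level before TPA. Each array held RNA from whole shaved back skin of 1 biological replicate, so that fewer cells of a type and less RNA per cell cannot be told apart.

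Values are log2 intensities of probe sets. In the following, a probe set or gene rose or fell if its Benjamini-Hochberg adjusted p in limma was under 0.05, and it was called if it also changed more than 3-fold. Levels of different probe sets are not compared. The replicates of a group correlated at 0.985 to 0.994 over the tested probe sets. D6-deficient replicate 1 at day 4 stood somewhat apart, with r of 0.986 and 0.985 to the other two, which correlated at 0.994. It was also the only D6-deficient day 4 array of one of 2 sets into which the hybridization controls separated the arrays. Without it 442 probe sets were called, of which 389 were among the 468 called with it. Of the 468 calls, 409 were over 3-fold in the same direction within the set with 1 array per day and 378 within the set with 2, a description only, since the calls were made on these arrays. One of 3 Ccbp2 probe sets separated the genotypes, at 3.30 to 3.86 in D6-deficient and 4.15 to 5.76 in WT skin, and the ranges of the others overlapped.

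Among 36029 tested probe sets, 188 were called higher (0.522%) and 280 lower (0.777%) at day 4, 1.3% in all. Without the fold threshold 2797 rose (7.76%) and 3077 fell (8.54%). By the brightest probe set of each of 17772 genes, 124 genes were called higher (0.698%) and 210 lower (1.18%), 1614 rose (9.08%) and 1916 fell (10.8%), and the median change was 0.01. The genes that rose most included chemokines and cytokines of inflammation. Those that fell most included keratins and barrier proteins of differentiating epidermis. Among 43 genes induced by interferon 29 fell, and the change of 28 differed from that in WT skin. Yet the study had picked 23 of the 43 on these arrays as higher than WT at day 2, relative to each genotype's own controls.

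Inflamed skin attracts neutrophils through CXC chemokines that bind CXCR2, and G-CSF (Csf3) drives the production and release of these cells. Keratinocytes leaving the basal layer make keratins 1 and 10 and then the proteins of the cornified envelope, which forms the outer barrier. Type I interferons act through transcription factors that bind the interferon-stimulated response element in the promoters of antiviral genes.

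Ppbp, a precursor of CXCR2 ligands that platelets release, had the largest increase. Its log2 intensity was 4.99, 5.37 and 5.02 on the day 2 arrays and 10.06, 9.94 and 9.78 on the day 4 arrays, a change of 4.80 (SE 0.27, limma adjusted p = 4.1e-11) or 27.8-fold. All day 4 arrays lay far above all day 2 arrays, an absence of overlap that 36.3% of all genes showed in one direction or the other. Csf3 was 4.85, 5.36 and 4.23 at day 2 and 9.81, 9.51 and 9.24 at day 4 (change 4.71, SE 0.26, limma adjusted p = 3.9e-11). Cxcl5, a neutrophil chemokine, was 8.25, 6.72 and 7.38 at day 2 and 11.99, 12.12 and 11.92 at day 4 (change 4.56, SE 0.37, limma adjusted p = 6.7e-09). Its day 4 arrays were close together and its day 2 arrays spread over more than 1 log2 unit. Cxcl1 rose by 3.86 (limma adjusted p = 1.4e-09), from 9.17, 8.93 and 8.70 to 13.20, 12.83 and 12.34. Of the 6 neutrophil-attracting CXC chemokines, 3 were called, beside 0.698% of all genes called higher, and the others did not pass the test. Cxcl3 was 9.43, 10.06 and 8.72 at day 2 and 10.84, 10.36 and 9.52 at day 4 (limma adjusted p = 0.33), with overlap between the days. Cxcl2 changed by -1.51 (SE 0.66, limma adjusted p = 0.13), and its 3 day 4 arrays lay under its 3 day 2 arrays. Both were already high at day 2: against day 0 Cxcl2 was higher by 7.40 (limma adjusted p = 8.8e-09) and Cxcl3 by 6.16 (limma adjusted p = 5.4e-09). Cxcl15 changed by 0.03 (limma adjusted p = 0.93).

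**Figure D1:**
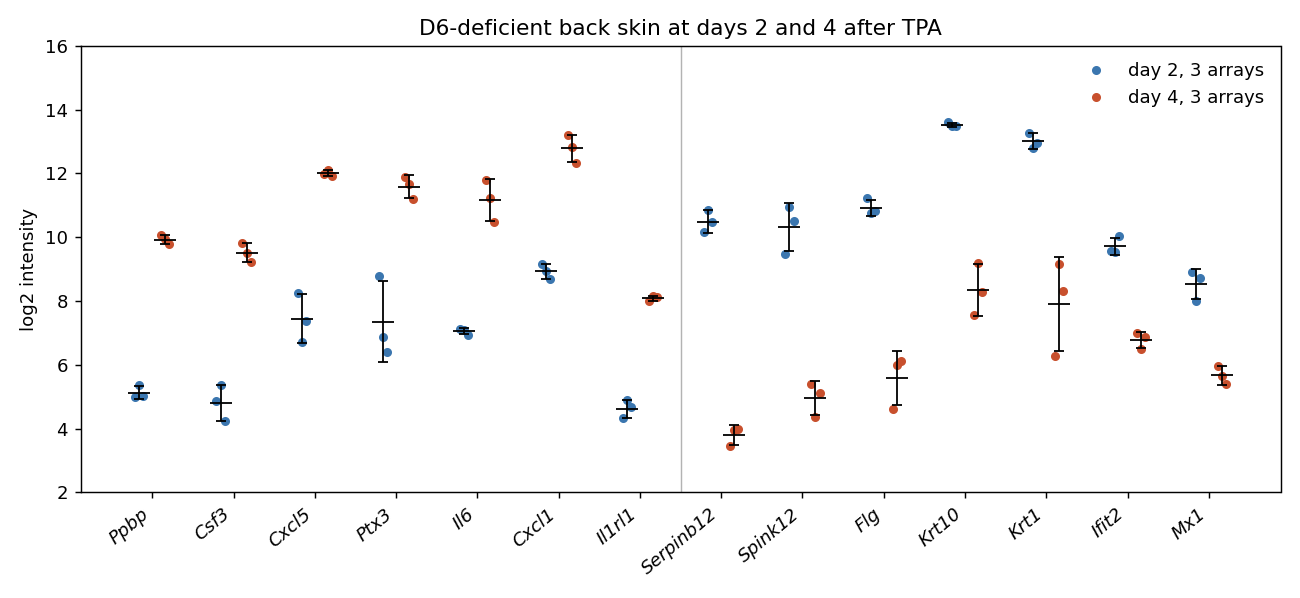
Log2 intensity of 14 genes on each D6-deficient array at day 2 (blue) and day 4 (red), with the mean and SD of 3 arrays in black. Ppbp, Csf3, Cxcl5, Ptx3, Il6, Cxcl1 and Il1rl1, left of the line, were higher at day 4. Serpinb12, Spink12, Flg, Krt10, Krt1, Ifit2 and Mx1, right of it, were lower. The days did not overlap in any of them, which was a condition of naming for all but Ifit2 and Mx1. Over all genes 36.3% did not overlap.

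Of the 27 other chemokine ligands tested, 7 were called higher and none lower, and 12 rose and 1 fell. Ccl22, a ligand of CCR4 made by dendritic cells and macrophages, rose from 6.24, 5.68 and 5.98 to 9.79, 8.96 and 9.60 (change 3.49, limma adjusted p = 2.4e-09). In WT skin Ccl22 rose by 2.55 (limma adjusted p = 3.3e-07), and the difference between genotypes did not pass (limma adjusted p = 0.33). Ccl24, an eosinophil chemokine, rose by 3.20 (limma adjusted p = 1.6e-05), Cxcl9, a ligand of CXCR3, by 2.61 on its brightest probe set (limma adjusted p = 6e-05) and Cxcl13, which attracts B cells, by 2.52 (limma adjusted p = 8e-05). The monocyte chemokines Ccl7 and Ccl2 rose by 2.02 (limma adjusted p = 6.1e-05) and 1.83 (limma adjusted p = 3.3e-06). The median over the 27 chemokines was 0.47 in D6-deficient and 0.98 in WT skin.

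Among 29 cytokines of inflamed skin, 9 rose and 5 fell, beside 9.08% of all genes that rose and 10.8% that fell. Il6, which acts on many cells and on the acute-phase response, was 7.13, 7.10 and 6.95 at day 2 and 11.80, 11.22 and 10.47 at day 4 (change 4.10, SE 0.39, limma adjusted p = 7.4e-08). Il24 rose by 2.86 (limma adjusted p = 8.9e-08) and Tslp, an epithelial cytokine that acts on dendritic cells, by 1.37 (limma adjusted p = 0.0025). Osm, Il11, Csf1 and Inhba rose by 0.98, 0.57, 0.56 and 0.57 (limma adjusted p = 0.0067, 0.0077, 0.041 and 0.042). Each of these 4 missed the threshold when some single array was left out, Osm without day 4 replicate 1 (limma adjusted p = 0.062) or day 2 replicate 3 (limma adjusted p = 0.065), Il11 without day 2 replicate 2 (limma adjusted p = 0.056), Csf1 without any of the 6 and Inhba without any except day 2 replicate 3. Il17a was 6.35, 4.52 and 4.72 at day 2 and 8.01, 5.49 and 6.32 at day 4 (change 1.41, limma adjusted p = 0.022), with overlap. Without replicate 1 at day 4, which held the highest value, the change was 0.71 (limma adjusted p = 0.23), and it also missed the threshold without replicate 2 or 3 at day 2 (limma adjusted p = 0.15 and 0.11). A probe set shared by Il22 and Iltifb rose from 5.83, 3.44 and 3.90 to 7.93, 6.32 and 6.96 (change 2.68, SE 0.46, limma adjusted p = 2e-04), and the 2 genes cannot be told apart on it. The cytokines that fell were the epidermal interleukin 1 family members Il1f6 (4.0-fold, limma adjusted p = 0.0021), Il1f8 (change -1.32, limma adjusted p = 0.0049) and Il1f5 (change -1.10, limma adjusted p = 0.0029), with Il18 (change -1.26, limma adjusted p = 0.00011) and Tnf (change -0.47, limma adjusted p = 0.015). Without replicate 1 at day 4, Il1f6 changed by less than 3-fold (-1.28, limma adjusted p = 0.023) and Il1f8 did not pass (limma adjusted p = 0.056). Tnf did not pass without replicate 2 at day 2 (limma adjusted p = 0.076) and was at the threshold without replicate 1 (limma adjusted p = 0.05). Il1a, Il1b, Il1rn, Il1f9, Il10, Il15, Il20, Il23a, Il33, Lif, Csf2, Il4, Il13, Tgfb1 and Ifnb1 did not pass, at changes from -0.49 to 0.68. Il1b was 12.11, 12.05 and 11.52 at day 2, when it was 4.37 above day 0 (limma adjusted p = 5.3e-10), and 11.88, 12.26 and 11.79 at day 4.

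Other large increases were those of Ptx3, a secreted pattern-recognition protein (change 4.24, limma adjusted p = 3.7e-06), Krt75, a keratin of the hair follicle companion layer (change 4.26, limma adjusted p = 9.7e-06), Il1rl1, the receptor of IL-33 (change 3.46, limma adjusted p = 1.2e-09), the anion exchanger Slc26a4 (change 3.76, limma adjusted p = 1.4e-05), the carbonic anhydrase Car4 (change 3.62, limma adjusted p = 9.7e-06) and the protease Adamts9 (change 3.29, limma adjusted p = 6.7e-07). Of 17 antimicrobial and stefin genes, 4 were called higher and 3 fell, beside 0.698% of all genes called higher and 10.8% that fell. The acute-phase protein Saa2 changed by 2.51 (limma adjusted p = 0.0022), the protease inhibitor Slpi by 1.89 (limma adjusted p = 0.00048) and the bactericidal Pglyrp1 by 1.88 (limma adjusted p = 0.00022). Saa1 changed by 2.18 (limma adjusted p = 0.015) and did not pass without replicate 1 at day 4 (limma adjusted p = 0.12), without replicate 2 at day 2 (limma adjusted p = 0.083) or without replicate 3 at day 2 (limma adjusted p = 0.079). Among matrix genes, 8 rose and 9 fell of 36, and of all genes 9.08% rose and 10.8% fell. Timp1, an inhibitor of matrix metalloproteases, rose by 2.78 (limma adjusted p = 1.6e-06) and the collagenase Mmp13 by 1.99 (limma adjusted p = 0.0029). The immediate early list held 1 call, Socs3, a feedback inhibitor of cytokine signaling, at 2.02 (limma adjusted p = 1.4e-06), with 7 of 18 genes rising and 1 falling. Pdpn, a glycoprotein of lymphatic endothelium and activated keratinocytes, rose by 2.14 (limma adjusted p = 9.2e-07), and Vwf, of vascular endothelium, fell by 1.76 (limma adjusted p = 1.2e-05), and without replicate 2 at day 4 the endothelial list had no call lower. Tgfa rose by 1.63 (limma adjusted p = 8.2e-06) and Ereg fell by 2.68 (limma adjusted p = 8.7e-06), both being ligands of the EGF receptor. Tgfa was under 3-fold without replicate 2 at day 2 or replicate 3 at day 4.

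Serpinb12, an intracellular protease inhibitor of epithelia, had the largest fitted decrease. It was 10.15, 10.85 and 10.48 at day 2 and 3.44, 3.95 and 4.00 at day 4 (change -6.70, SE 0.40, limma adjusted p = 8.7e-11). Its day 4 values were close to 3.72, the lowest mean that passed the filter on low values, so that its fold is not given and its rank is uncertain. Krt10 was 13.61, 13.48 and 13.48 at day 2 and 7.55, 9.18 and 8.28 at day 4 (change -5.19, SE 0.42, limma adjusted p = 7.3e-09). Its partner Krt1 was 13.28, 12.81 and 12.95 at day 2 and 6.29, 9.15 and 8.30 at day 4 (change -5.10, SE 0.48, limma adjusted p = 7.5e-08). For both keratins replicate 1 was the lowest day 4 array. Flg, which encodes the filament-aggregating protein of the granular layer, was 11.22, 10.75 and 10.81 at day 2 and 4.62, 6.01 and 6.13 at day 4 (change -5.34, SE 0.51, limma adjusted p = 7.7e-08). At day 6 the mean of Krt10 was 13.78 and that of Flg 10.96.

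Over all genes 1.18% were called lower and 10.8% fell. Of 34 cornified envelope and barrier genes, 6 were called lower and none higher (9 fell and 2 rose). These were Flg, Rptn, Lor (change -3.35, limma adjusted p = 1.8e-05), Casp14 (change -2.92, limma adjusted p = 2.8e-08), Hrnr and Tgm3. The median over the list was -0.15, and the 11 tested Lce1 genes, which encode late envelope proteins, did not pass the test in either direction. Of 22 basal and suprabasal epidermal genes, 4 were called lower, namely Krt10, Krt1 and the desmosomal cadherins Dsc1 (change -2.55, limma adjusted p = 9.3e-05) and Dsg1a (change -2.35, limma adjusted p = 7.4e-08), 14 fell and 1 rose. Krt5, a keratin of basal keratinocytes, went from 13.13, 13.38 and 13.44 to 11.72, 11.60 and 11.89 (change -1.58, SE 0.14, limma adjusted p = 2.2e-08), and its partner Krt14 from 14.25, 14.33 and 14.36 to 12.98, 13.38 and 13.63 (change -0.99, limma adjusted p = 7.6e-05). These 2 keratins were chosen after their values were seen. Of 12 clade B serpins, 4 were called lower and 1, Serpinb9b, higher (change 3.01, limma adjusted p = 5.8e-09).

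Over all genes 10.8% fell and 1.18% were called lower. Of 39 cell cycle and replication genes, 22 fell and none rose, and 4 were called. These were Ccnb2, Kif20a, Cenpa and Ube2c, which act in mitosis, with changes of -1.87, -1.83, -1.66 and -1.62 (limma adjusted p = 0.00043, 0.0022, 0.00024 and 0.0014). Ccnb2 was 8.95, 9.49 and 9.59 at day 2 and 7.02, 7.56 and 7.84 at day 4. The 6 genes of the replicative helicase (Mcm2 to Mcm7) did not pass, at changes from -0.25 to 0.34. The median over the list was -1.11. The number called was 1 without replicate 1 and 9 without replicate 3 at day 4, and 13 without replicate 1 and 2 without replicate 3 at day 2, while 16 to 22 fell when any single array was left out.

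**Figure D2:**
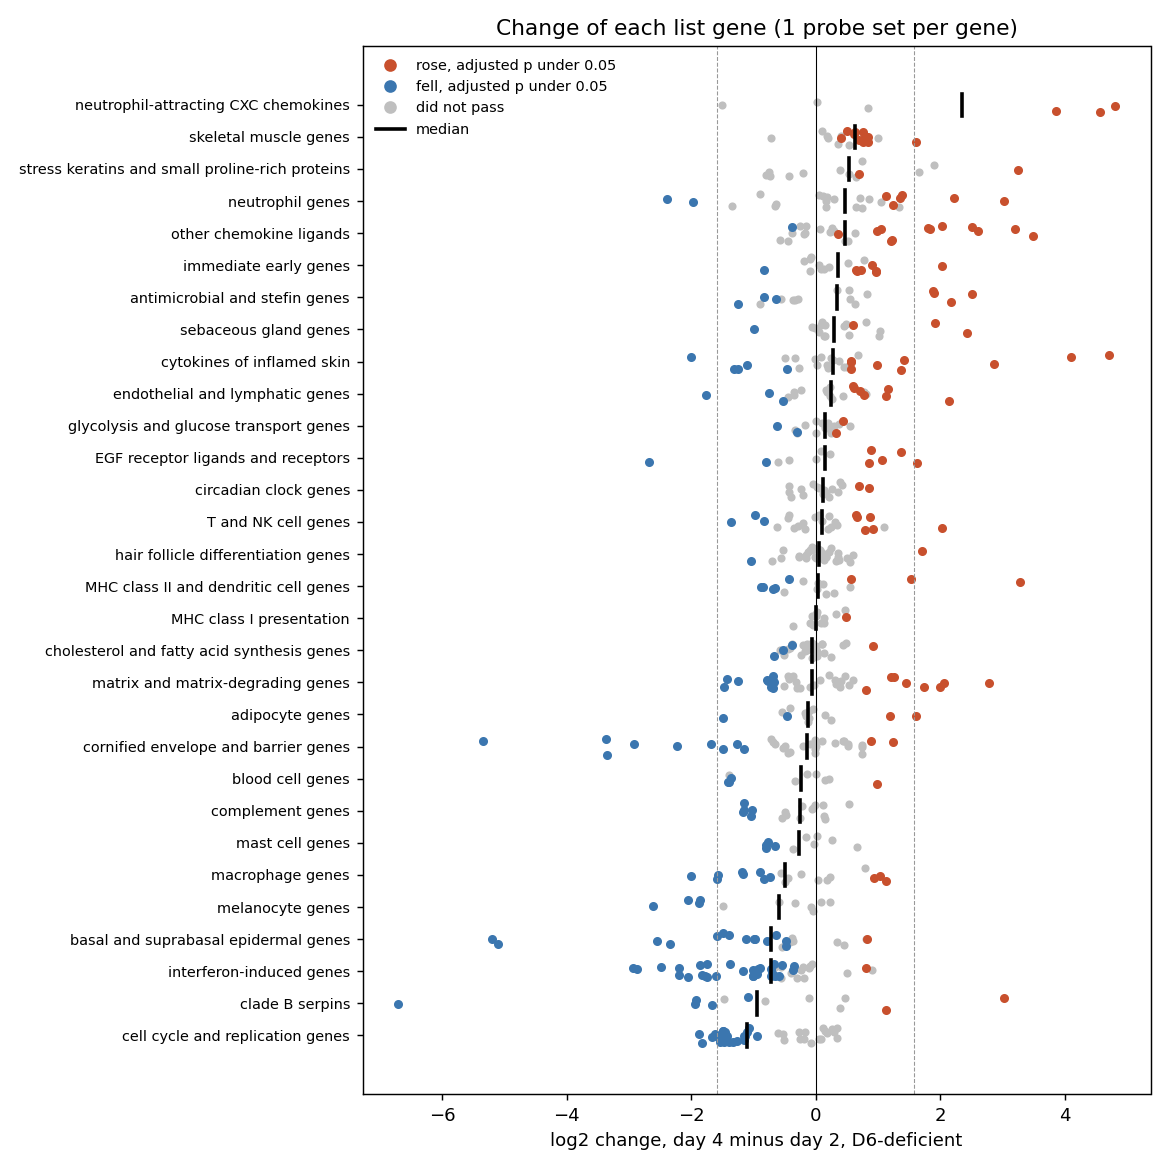
Log2 change from day 2 to day 4 in D6-deficient skin (horizontal axis) of each gene of 30 lists, ordered by median (black bar), with genes that rose in red, genes that fell in blue and the others in grey. Dashed lines mark a 3-fold change. The cell cycle list has the lowest median (-1.11) and the neutrophil-attracting CXC chemokines the highest (2.35).

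The interferon-induced list holds mostly antiviral genes and their regulators. Of 43 tested, 29 fell and 1, Gbp2, rose, beside 10.8% of all genes that fell and 9.08% that rose. Called lower were 12, beside 1.18% of all genes. Cxcl9 was not in this list and was counted with the other chemokine ligands, although the study measured it by PCR as an interferon pathway gene. Unlike most of the list, Cxcl9 rose, by 2.61 on its brightest probe set (limma adjusted p = 6e-05). On that probe set the difference from WT skin did not pass (difference -0.29, limma adjusted p = 0.95). On its other tested probe set Cxcl9 rose by 3.41 (limma adjusted p = 7.5e-08). There the difference from WT skin was 1.15, of the opposite sign, and did not pass either (limma adjusted p = 0.36). The median over the 43 listed genes was -0.71. The study picked 23 of these 43 genes on the same arrays as higher than in WT skin at day 2, relative to each genotype's own controls. Neither the fall of these 23 nor their difference between genotypes is therefore independent evidence of a direction. Of the 20 not picked, 12 fell and 1 rose, at a median of -0.55, and 2 were called lower. The list was chosen with earlier results of these data known, so these 20 are not independent evidence either. Of the 23 picked, 10 were called lower, at a median of -1.17. Ifit2, whose product binds viral RNA, was 9.58, 9.55 and 10.03 at day 2 and 6.99, 6.51 and 6.87 at day 4 (change -2.93, SE 0.21, limma adjusted p = 1e-09), while its mean was 6.65 at day 0. The antiviral GTPase gene Mx1 was 8.90, 8.00 and 8.72 at day 2 and 5.97, 5.65 and 5.39 at day 4 (change -2.87, SE 0.24, limma adjusted p = 1.7e-08). Ifi44, Ifit3, Cxcl10 and Cmpk2 changed by -2.48, -2.20, -2.20 and -2.06 (limma adjusted p = 0.0013, 4.7e-06, 4.9e-07 and 5.4e-07). Irf7, a transcription factor that raises interferon production, was 10.87, 10.04 and 11.03 at day 2 and 8.92, 8.61 and 8.92 at day 4 (change -1.83, limma adjusted p = 7.4e-06). Rsad2, chosen like Irf7 after its value was seen, changed by -1.86 (limma adjusted p = 4.4e-05). When any single array was left out, 23 to 30 of the 43 fell.

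Promoter sequences of 5 genes described above are printed to show a motif in interferon-induced genes that fell and in 2 inflammatory genes that rose, and they were picked because they hold a match. The windows of Ifit2, Irf7, Cmpk2 and Ppbp, also searched, hold none, and Mx1, Cxcl5 and Csf3 were not matched in the promoter table. They are RefSeq sequences of the GRCm38.p6 build, 250 bases long and ending at the base before the annotated start. Capitals mark each match, on either strand, to the interferon-stimulated response element core TTTCNNTTTC (Ifit3, Rsad2 and Cxcl10) or to the kappaB-type motif GGGNNTTTCC (Cxcl1 and Il6).
Ifit3 (chr19:34583279-34583528, plus strand): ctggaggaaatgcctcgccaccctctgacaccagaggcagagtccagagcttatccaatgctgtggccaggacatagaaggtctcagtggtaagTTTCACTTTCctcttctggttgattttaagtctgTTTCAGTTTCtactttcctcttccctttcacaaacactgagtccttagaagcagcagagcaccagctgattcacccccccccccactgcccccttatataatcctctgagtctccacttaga
Rsad2 (chr12:26456453-26456702, minus strand): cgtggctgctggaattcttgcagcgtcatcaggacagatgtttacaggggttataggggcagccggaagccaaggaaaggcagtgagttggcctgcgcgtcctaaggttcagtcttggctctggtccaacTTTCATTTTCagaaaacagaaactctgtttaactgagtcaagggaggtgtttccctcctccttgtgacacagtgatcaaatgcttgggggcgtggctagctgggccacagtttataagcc
Cxcl10 (chr5:92348890-92349139, minus strand): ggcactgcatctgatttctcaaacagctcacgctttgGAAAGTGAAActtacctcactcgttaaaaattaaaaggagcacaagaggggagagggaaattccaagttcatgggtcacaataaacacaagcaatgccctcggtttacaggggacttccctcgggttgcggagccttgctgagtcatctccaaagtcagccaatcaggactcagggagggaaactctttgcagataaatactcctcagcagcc
Cxcl1 (chr5:90890995-90891244, plus strand): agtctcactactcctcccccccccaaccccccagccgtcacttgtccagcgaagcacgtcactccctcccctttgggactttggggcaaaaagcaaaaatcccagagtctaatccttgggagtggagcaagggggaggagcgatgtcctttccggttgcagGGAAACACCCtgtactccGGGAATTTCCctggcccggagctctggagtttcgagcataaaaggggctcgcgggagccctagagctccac
Il6 (chr5:30012864-30013113, plus strand): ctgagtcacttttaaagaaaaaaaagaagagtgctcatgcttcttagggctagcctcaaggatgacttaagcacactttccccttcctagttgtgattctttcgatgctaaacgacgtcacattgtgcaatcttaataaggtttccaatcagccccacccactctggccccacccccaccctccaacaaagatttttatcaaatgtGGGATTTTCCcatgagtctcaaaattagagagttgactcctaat

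In windows from 250 bases before to 50 after the start, TTTCNNTTTC was found in 17 of the 32 interferon-induced genes that had a window, 53.1%, and in 1079 of all 27025 genes, 3.99%. It was found in 6 of 10 interferon-induced genes called lower at day 4. GGGNNTTTCC was found in 3 of 5 neutrophil-attracting CXC chemokines and in 1.89% of all genes. A match describes the letters of the window and no binding was measured.

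The change from day 2 to 4 differed between the genotypes in 100 probe sets (0.278%), of which 90 had a lower (0.25%) and 10 a higher change (0.0278%) in D6-deficient skin, among 303 (0.841%) at an adjusted p under 0.05 without the fold threshold. The count was 57 without WT replicate 1 and 66 without WT replicate 3 at day 2, and the methods' t-test gave 167 at its unadjusted threshold and 3 after Benjamini-Hochberg. In WT skin 417 probe sets were called (1.16%). By the brightest probe set 1.03% of genes differed, 0.771% with a lower change in D6-deficient skin, and 0.309% were called with a lower change. Of the 43 interferon-induced genes, 28 had a lower change in D6-deficient skin and none a higher one, with a median difference of -1.38, and 16 were called. Of the 23 that the study had picked 17 differed and 13 were called, at a median difference of -2.07. Of the 20 that it had not picked 11 differed and 3 were called, at a median difference of -1.09. In WT skin 22 of these genes rose, beside 8.23% of all genes, and none fell. When any single array of the 12 compared was left out, 23 to 31 differed. Cxcl10 fell by 2.20 in D6-deficient skin and rose by 0.92 (limma adjusted p = 0.0095) in WT skin, a difference of -3.11 (SE 0.34, limma adjusted p = 3.7e-05). Ifit2 differed by -2.58 (limma adjusted p = 3.8e-05), Mx1 by -2.51 (limma adjusted p = 0.00026), Irf7 by -2.76 (limma adjusted p = 0.00011) and Rsad2 by -2.49 (limma adjusted p = 0.0015). At day 2 the mean of Ifit2 was 9.72 in D6-deficient and 6.65 in WT skin, and at day 4 it was 6.79 and 6.29. The mean over the 43 genes stayed higher at day 4 than at day 0 in D6-deficient skin. It was 7.92 to 8.14 on the day 0 arrays, 9.61 to 10.01 at day 2 and 8.77 to 9.07 at day 4. On the WT arrays it was 7.76 to 8.05 at day 2 and 8.43 to 8.68 at day 4. The study describes its interferon cluster as sustained at day 4.

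**Figure D3:**
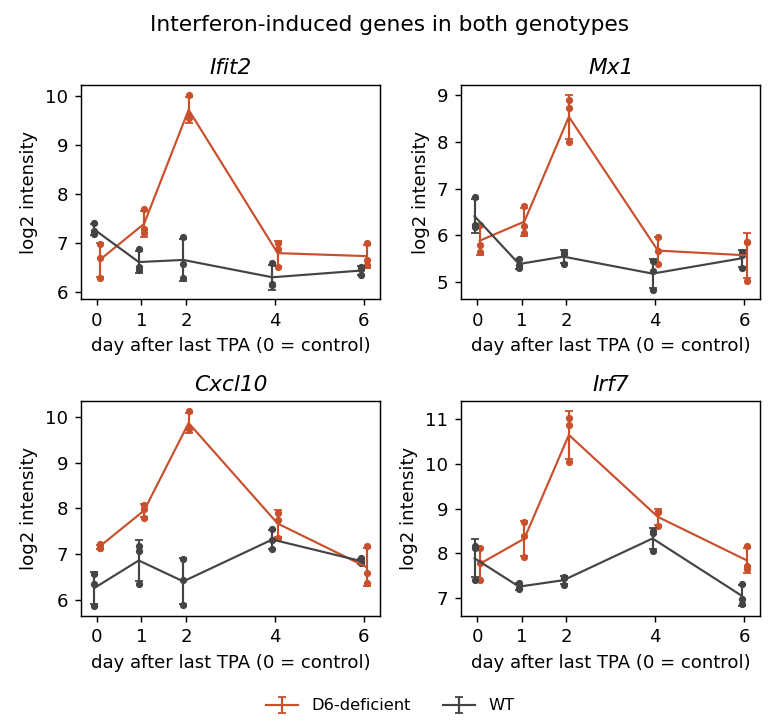
Log2 intensity of Ifit2, Mx1, Cxcl10 and Irf7 in D6-deficient (red) and WT (grey) skin by day, with single arrays as points and lines through the mean with SD (n = 3). Day 0 is control skin. In D6-deficient skin each gene was highest at day 2 and lower at day 4, with Ifit2 at means of 9.72 and 6.79.

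Of 24 genes that mark neutrophils or their granules, 6 rose and 2 fell from day 2 to 4 in D6-deficient skin (median 0.47). There 2 were called higher, beside 0.698% of all genes, while 9.08% of all genes rose and 10.8% fell. In WT skin 17 of the 24 rose and none fell (median 2.20), and 16 were called higher, beside 0.94% of all genes. Cxcr2, the receptor of the CXC chemokines above, rose from 8.17, 8.04 and 7.92 to 10.20, 10.46 and 10.13 (limma adjusted p = 2.1e-08), and Prok2 rose by 3.02 (limma adjusted p = 8.7e-05). The granule genes Ltf and Camp, at -2.40 (limma adjusted p = 0.023) and -1.97 (limma adjusted p = 0.025), overlapped between the days, and neither passed when any 1 of replicates 2 and 3 of either day was left out. The difference between genotypes was called for 7 neutrophil genes, all with a lower change in D6-deficient skin. Chosen after their values were seen, these were Clec4e, Fcgr4, Fpr2, Mmp8, Fpr1, Csf3r and Mmp9. Clec4e, a pattern-recognition receptor, was 10.53, 10.44 and 9.77 at day 2 and 10.09, 10.72 and 10.42 at day 4, whereas its WT mean went from 6.92 to 10.15 (difference -3.07, SE 0.61, limma adjusted p = 0.012). Mmp8, a neutrophil collagenase, differed by -2.74 (limma adjusted p = 0.013). The number was 2 without WT replicate 1 or WT replicate 3 at day 2, 3 without WT replicate 3 at day 4, and 4 without WT replicate 1 at day 4 or without D6-deficient replicate 2 or 3 at day 2. Cxcl3 and Cxcl5 differed likewise, by -3.34 (limma adjusted p = 0.027) and -2.28 (limma adjusted p = 0.031). For Cxcl3 the D6-deficient mean went from 9.40 to 10.24 and the WT mean from 4.96 to 9.14. Cxcl3 failed the test when 1 of 7 arrays was left out and Cxcl5 when 1 of 9 was, of the 12 compared (highest limma adjusted p = 0.097 and 0.099). Other than the probe set shared by Il22 and Iltifb, the cytokine, cell cycle, cornified envelope and keratin genes named above did not pass the test of a difference between genotypes. Nor did Ppbp, Cxcl1, Ptx3, Il1rl1 and Serpinb12, whose changes in WT skin were 5.4, 3.4, 4.0, 3.4 and -6.1.

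**Figure D4:**
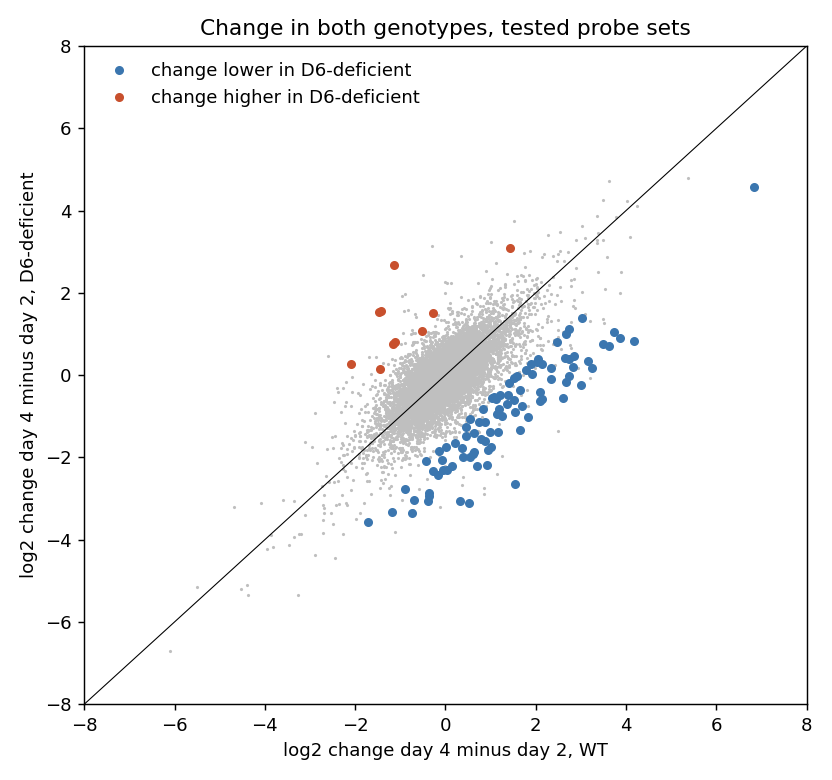
Log2 change from day 2 to day 4 in WT (horizontal) and D6-deficient (vertical) skin of every tested probe set, with the line of equal change. The 90 probe sets with a lower change in D6-deficient skin (blue) lie below the line and the 10 with a higher change (red) above it.

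The largest fitted difference the other way was that of the probe set shared by Il22 and Iltifb (3.83, SE 0.65, limma adjusted p = 0.0026). Its D6-deficient day 2 values of 3.44 and 3.90 and its WT day 4 mean lay near 3.72, the lowest mean that passed the filter. Its rank is therefore uncertain. In WT skin its mean was 4.92 at day 2 and 3.77 at day 4 (change -1.15, limma adjusted p = 0.1), and the difference passed when any single array was left out but not when the 12 arrays compared were fitted alone (limma adjusted p = 0.08). Next were those of Olah, a thioesterase of fatty acid synthesis (3.01, limma adjusted p = 0.0021), and Cd207, which encodes langerin of Langerhans cells (3.00, limma adjusted p = 0.0059). Cd207 was 7.34, 5.36 and 6.65 at day 2 and 8.11, 7.82 and 8.02 at day 4 in D6-deficient skin (change 1.53, limma adjusted p = 0.0079), whereas in WT skin it fell by 1.47 (limma adjusted p = 0.012). Without replicate 2 at day 2 the D6-deficient change was 0.99 (limma adjusted p = 0.093). Ccl20, the ligand of CCR6, differed by 2.37 (limma adjusted p = 0.025), Orm1 by 1.93 (limma adjusted p = 0.016) and Gsdma by 1.93 (limma adjusted p = 0.02). Ccl20 failed the test when 1 of 8 arrays was left out, and Orm1 and Gsdma each when 1 of 5 was (highest limma adjusted p = 0.1, 0.061 and 0.077).

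**Figure D5:**
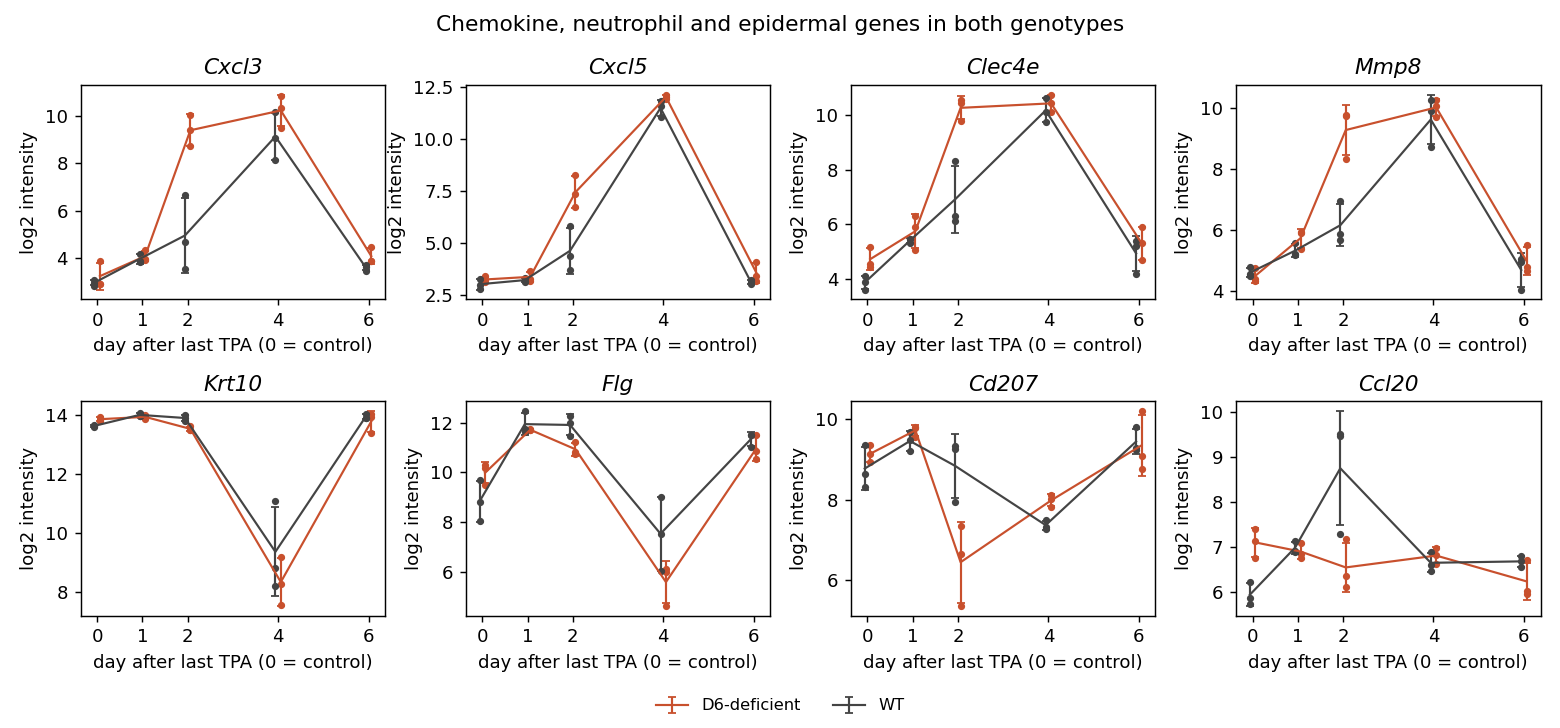
Log2 intensity of 8 genes in D6-deficient (red) and WT (grey) skin by day, with single arrays as points and lines through the mean with SD (n = 3). Day 0 is control skin. Krt10 and Flg had their lowest means at day 4 in both genotypes, and Cxcl3, Cxcl5, Clec4e and Mmp8 had higher day 2 means in D6-deficient skin.

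Other immune cell markers changed in both directions, as did all genes, of which 9.08% rose and 10.8% fell. Of 19 macrophage genes 8 fell and 3 rose. Gpnmb fell by 2.01 (limma adjusted p = 5.3e-06), and the number called lower went from 1 to 3 without replicate 2 of either day and to 2 without replicate 3 of either day. Among 16 MHC class II and dendritic cell genes 5 fell and 3 rose, with Ccr7, a receptor that guides dendritic cells to lymph nodes, rising from 5.39, 5.69 and 5.53 to 9.11, 8.29 and 9.05 (limma adjusted p = 5.9e-10). Of 25 T and NK cell genes 6 rose and 3 fell, with the cytotoxic granule protease Gzmb rising by 2.02 (limma adjusted p = 6.3e-05). Of 10 mast cell genes 4 fell, Mcpt4 by 0.80 (limma adjusted p = 0.0032), and of 17 complement genes 5 fell.

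Markers of tissue content also moved, beside 9.08% of all genes that rose, 0.698% called higher and 1.18% called lower. Of 20 skeletal muscle genes 11 rose and none fell, and the mean over the list was 10.80 to 10.99 on the day 2 arrays and 11.21 to 11.94 on the day 4 arrays. Without replicate 1 at day 4, 2 rose, and without replicates 1, 2 and 3 at day 2 in turn, 6, 4 and 7 rose. These muscle markers moved with the comparison, and their part in the results was not tested. Dct, Tyrp1, Si and Mlana, genes of melanin synthesis, were the 4 called lower of 11 melanocyte genes (changes -2.61, -2.05, -1.87 and -1.86, limma adjusted p = 0.00049, 0.0063, 0.0085 and 0.044), and 1 was called without replicate 2 at day 2. Sebaceous genes Elovl3 and Far2 changed by 2.42 and 1.91 (limma adjusted p = 0.0094 and 0.048) with overlapping groups, and neither was called without replicate 2 or replicate 3 at day 2, and 1 gene of the list was called without each day 4 array in turn. Lep, Pvalb and Tchh were the only calls among adipocyte, muscle and hair follicle genes, at 1.61, 1.61 and 1.71 (limma adjusted p = 0.043, 0.00022 and 0.039), and Tchh was lost without any single array, Lep without any except day 4 replicate 1, and Pvalb without day 4 replicate 1 or day 2 replicate 2 or 3. The lists of MHC class I, cholesterol synthesis, circadian, glycolysis and blood cell genes held no call, although 3 blood cell genes were called lower without replicate 3 at day 2. Of stress keratins and small proline-rich proteins, only Sprr2j-ps was called (change 3.24, limma adjusted p = 7.7e-05), with 3 called without replicate 1 at day 2.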

How the data were processed

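RNA from whole back skin was measured on Affymetrix mouse whole-genome arrays of the type Mouse430_2. The deposited values are linear intensities that the authors normalized with robust multiarray analysis (RMA), with 1 column per array and no pooling. The version of RMA is not given in the sources used here. RMA makes arrays alike in their overall distribution, so that a change shared by most genes would not be seen. A second deposited text held no expression values and was not used. Intensities were taken to log2. After 64 control probe sets were removed, the lowest 20% by mean over the arrays were left out (9008 of 45037). Of 45037 probe sets, 38544 had 1 gene symbol, 860 several and 5633 none. A gene in a list was represented by its brightest tested probe set.

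One mean per group was fitted to all 30 arrays with limma 3.58.1 (lmFit, eBayes) in R 4.3.3, with Benjamini-Hochberg adjustment over all tested probe sets. The labels call the arrays of a group biological replicates. With 3 arrays against 3, an exact permutation test of 1 gene cannot go below p = 0.1. The difference between genotypes was the interaction in the same fit. The scripts were tested on simulated data. Figures were drawn with matplotlib 3.10.9.

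Named genes were the 15 largest increases and the 15 largest decreases called without overlap, up to 6 called genes in each direction per list (up to 3 where none was called), all tested neutrophil-attracting CXC chemokines and cytokines, the 5 largest genotype differences each way, and the D6 gene. Of these the text gives those with the plainest roles. Other genes named as further members of a list, and 13 genes (Clec4e, Fcgr4, Fpr2, Mmp8, Fpr1, Csf3r, Mmp9, Rsad2, Irf7, Krt5, Krt14, Cd207 and Ccl20), were singled out after their values were seen, of which Cd207 and Ccl20 also met the rule. The comparison, members and lists were chosen with earlier results of these data known, and list counts are a description beside the share over all genes. Alternatives covered filters, centring, the arrays fitted, single arrays left out, a replicate block, the hybridization control sets, array weights and the methods' t-test. Replicate numbers were not taken as pairs. A gene that met the naming rule is not reported here.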

Additional observations from a re-analysis of the deposited data

Results flagged for a closer look

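The change from day 2 to day 4 differed between D6-deficient and WT skin, by the interaction in limma, for 26 of the probe sets named. Over all tested probe sets 0.841% differed. The count of 26 was partly fixed in advance by the naming. The 5 largest called differences each way were named for that difference. The neutrophil genes, Irf7 and Rsad2 were chosen after their values were seen. All values are the D6-deficient minus the WT log2 change. Interferon-induced genes had a lower change in D6-deficient skin, by -3.11 for Cxcl10, -2.76 for Irf7, -2.58 for Ifit2, -2.51 for Mx1, -2.49 for Rsad2, -2.35 for Ifit3 and -1.98 for Cmpk2. So did neutrophil genes, by -3.07 for Clec4e, -2.91 for Fpr2, -2.74 for Mmp8, -2.69 for Fpr1, -2.18 for Fcgr4, -1.65 for Mmp9 and -1.60 for Csf3r, and the chemokines Cxcl3 at -3.34 and Cxcl5 at -2.28. Further large differences were those of Reg1 at -4.20, H28 at -3.64, Gm14446 at -3.39 and Slfn4 at -3.26. These genes were named for the size of the difference and were not sorted by a response to interferon. Reg1 was 8.59, 9.41 and 9.46 on the D6-deficient arrays of day 2 and 5.43, 6.48 and 7.60 on those of day 4. The higher ones were those of the probe set shared by Il22 and Iltifb at 3.83, Olah at 3.01, Cd207 at 3.00, Ccl20 at 2.37, Orm1 at 1.93 and Gsdma at 1.93. Of the 26, 15 passed when any single array was left out and 11 did not without some array, namely H28, Cxcl3, Cxcl5, Clec4e, Mmp8, Fpr1, Csf3r, Mmp9, Ccl20, Orm1 and Gsdma. The cause of these differences was not tested.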

How the results depend on the processing

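For the change from day 2 to 4, 468 probe sets were called (188 higher and 280 lower) and 440 to 475 under the other filters, centring, array sets, hybridization control sets, variance trend, array weights or unadjusted t-test. It was 5874 (2797 higher and 3077 lower) without the fold threshold and 164 (72 and 92) by the methods' t-test after Benjamini-Hochberg. Leaving out single arrays gave 431 to 549 (159 to 223 higher and 234 to 354 lower). For the genotype difference, 100 were called (10 and 90). Fitting only the arrays compared gave 6 higher. Array weights gave 172 (62 higher), no fold threshold 303 (75 and 228), the methods' t-test 167 (32 higher) unadjusted and 3 (0 and 3) after Benjamini-Hochberg. These t-test counts keep the 3-fold threshold. At an unadjusted p under 0.05 and without a fold threshold, limma found 3458, a count not comparable with them. Leaving out single arrays gave 57 (without WT day 2 replicate 1) to 134, with 4 to 35 higher (35 without D6-deficient day 2 replicate 1, 22 without D6-deficient day 4 replicate 1) and 53 to 115 lower. With the replicate number as a block 466 (187 and 279) and 102 were called, and with the block on the compared arrays only 446 and 70. Every array correlated best with its own number, a hint from the data only, at 0.088, 0.116 and 0.091. Averaging all probe sets of a gene gave 296 genes against 334.

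Genes with values near 0 turned sign, all at an adjusted p of 0.78 or above. Cxcl15 was -0.061 with array weights and -0.064 to 0.082 when single arrays were left out. Il13 was 0.005 with centring, 0.084 with array weights and -0.104 to 0.098 without single arrays. Without single arrays Il1a ran from -0.482 to 0.003, Il1b from -0.103 to 0.192, Il20 from -0.04 to 0.467, Il4 from -0.069 to 0.155 and Clec4e from -0.075 to 0.323. Over named genes and alternatives, 2633 values kept direction and side of the threshold, 199 no longer passed and 39 newly passed. Of the 199, 82 were lost under the methods' t-test after Benjamini-Hochberg, under which only 79 named probe sets stayed the same. For the genotype difference of 26 named probe sets, 447 values still passed and 97 did not. The cause was not tested. List counts and genotype differences of named probe sets under alternatives were added after seeing the data. The authors' normalized table was not run because that text holds no values. The number of arrays limits the precision.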
